A study of Mus musculus with 16 samples.

Results

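N-linked glycans are added to secretory proteins in the endoplasmic reticulum (ER) as a mannose-rich precursor and are trimmed on the way through the ER and the Golgi apparatus. The genes described here encode the enzymes of the mannose-trimming steps and the transferase that acts between them, and they are *Man1b1*, *Edem1*, *Edem2*, *Edem3*, *Man1a*, *Man1a2*, *Man1c1*, *Mgat1*, *Man2a1* and *Man2a2*. They were chosen by symbol, 10 of the 25054 gene entries of the count table, and each symbol had 1 entry. All 10 members passed the filter on low counts, a mean of 1 or more CPM (counts scaled to a fixed library total). The genes were picked by symbol and not by a measured value, though with earlier results of these data known. Libraries were grouped by measured tissue markers, as given below.

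RNA sequencing was done on lung and liver of newborn C57BL/6J pups, all born to heterozygous parents that received N-acetyl cysteine (NAC), an antioxidant and a precursor of glutathione, at 1 g/kg body weight or placebo (water) from before mating until delivery. The 4 pup groups were live wild type (WT), live *Man1a2* heterozygous (Het), dead Het and dead *Man1a2* null, where dead pups had died within 24 hours of birth and were harvested when found, live pups were killed after 24 hours, and the mutant allele lacks exon 2. Age at harvest and outcome therefore cannot be told apart. Each group, treatment and labelled tissue was represented by 1 library, 16 in all, made from RNA pooled over 3 experiments, or over 2 for dead Het pups. All WT pups were live and all null pups were dead, so genotype and outcome cannot be told apart between these groups, and live null and dead WT pups were not part of the series. The comparisons asked whether *Man1a2* and its relatives differed with tissue, genotype, outcome or NAC, and whether paralogs stood higher where *Man1a2* carried the deletion.

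In the ER, MAN1B1 removes terminal mannose from the precursor and the EDEM proteins trim glycans of misfolded proteins, which marks these for ER-associated degradation (ERAD). In the Golgi, the class I alpha-mannosidases IA (*Man1a*), IB (*Man1a2*) and IC (*Man1c1*) complete the trimming, MGAT1 adds the N-acetylglucosamine that opens the route to hybrid and complex glycans, and the class II enzymes alpha-mannosidase II (*Man2a1*) and IIx (*Man2a2*) remove further mannose so that complex glycans can be built. Mice without alpha-mannosidase IB are known to die of respiratory failure soon after birth. Newborn liver secretes most glycoproteins of plasma and still holds blood-forming cells.

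The labelled tissue went against tissue markers in many libraries, so libraries were also grouped by content. Lung-content libraries had at least 1000 raw CPM of *Sftpc*, the surfactant protein of alveolar type 2 cells, and under 1000 of *Alb*, the albumin of hepatocytes, and liver-content libraries had at least 50000 CPM of *Alb*. By this rule 7 libraries were lung-content, of which 3 were labelled lung and 4 liver, and 8 were liver-content, of which 4 carried each label. The placebo library of dead null pups labelled lung was mixed, with 5553 CPM of *Sftpc* and 9280 of *Alb*, and stayed out of the tests. In each of the 8 labelled NAC and placebo pairs, the libraries differed in content. Null pups therefore had 1 lung-content library, from placebo, and 2 liver-content libraries, both from NAC, so that treatment and content cannot be told apart in nulls. Totals were 7236865 to 11808823 counts in lung-content and 14115802 to 16107749 in liver-content libraries, and the ribosomal RNA entry *Rn45s* took 4.05% to 26.2% and 0.845% to 6.29% of them. The summed lung epithelium markers (12 of 12 genes measured) were at 10833 to 17747 CPM in lung-content and 79.6 to 112 in liver-content libraries, and the hepatocyte markers (12 of 12) at 184 to 1144 and 169012 to 299221. These lists include *Sftpc* and *Alb*, the genes of the rule, so part of this separation was set by the rule. Erythroid markers (8 of 10 with an entry) summed to 4753 to 12249 CPM in lung-content and 8456 to 47000 in liver-content libraries, and no defining marker of these lists was at 0 throughout a content. In bulk tissue, fewer cells of a type and less RNA per cell cannot be told apart.

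The sequences that decide what the counts can show are the deleted exon and the stretch by which the paralogs are separated. *Man1a2* (chr3:100562208-100685503, minus strand, GRCm38) has 13 exons in its longest coding transcript of 7969 bases, and exon 2 is the coding exon at chr3:100656019-100656274. It is printed here in capitals between 20 bases of the neighbouring exons in lower case.

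Man1a2 exon 2: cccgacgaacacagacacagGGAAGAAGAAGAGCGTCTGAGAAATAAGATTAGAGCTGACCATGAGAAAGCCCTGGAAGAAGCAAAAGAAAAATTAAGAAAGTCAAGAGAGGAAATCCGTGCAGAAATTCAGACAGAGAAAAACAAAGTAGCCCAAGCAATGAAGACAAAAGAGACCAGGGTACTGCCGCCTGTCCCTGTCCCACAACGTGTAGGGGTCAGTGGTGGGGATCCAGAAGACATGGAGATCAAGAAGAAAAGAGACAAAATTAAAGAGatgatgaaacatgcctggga

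Exon 2 holds 256 bases, which is not a multiple of 3, and makes up 3.21% of the transcript. A count per gene is thus carried almost wholly by the other exons and cannot check the deletion. The next exon has the same length of 97 bases in all 3 Golgi class I genes, and the 44 positions (45.4%) at which the 3 sequences have the same base are in capitals.

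Man1a2 exon 3, chr3:100652539-100652635, minus strand: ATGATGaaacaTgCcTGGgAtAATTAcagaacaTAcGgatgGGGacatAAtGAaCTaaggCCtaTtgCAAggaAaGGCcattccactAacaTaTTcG
Man1a exon 3, chr10:54030698-54030794, minus strand: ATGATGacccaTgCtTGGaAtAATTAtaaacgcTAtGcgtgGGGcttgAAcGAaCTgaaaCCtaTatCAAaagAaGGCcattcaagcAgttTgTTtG
Man1c1 exon 2, chr4:134640287-134640383, minus strand: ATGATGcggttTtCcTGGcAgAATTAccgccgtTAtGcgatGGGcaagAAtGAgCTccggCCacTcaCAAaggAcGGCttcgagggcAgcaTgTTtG

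Over the whole coding sequence, *Man1a* and *Man1a2* were identical at 64.3% of aligned bases, *Man1a* and *Man1c1* at 64.8%, and *Man1a2* and *Man1c1* at 62.7%. Over the longest coding transcripts, untranslated ends included, the longest shared runs were 16, 20 and 16 bases in the same order. The coding sequences of the 3 *Edem* genes were 61.4% to 67.4% identical to each other. Those of *Man2a1* and *Man2a2* were 62.9% identical, with a longest shared run of 30 bases in their transcripts. Exons of *Man1a*, *Man1b1*, *Man2a1* and *Man2a2* overlap genes on the other strand (*Gm16998*, *AA543186*, *Gm17133* and *Hddc3*), and whether strand was used in counting is not stated, so some of their counts could belong to these neighbours.

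**Figure D1:**
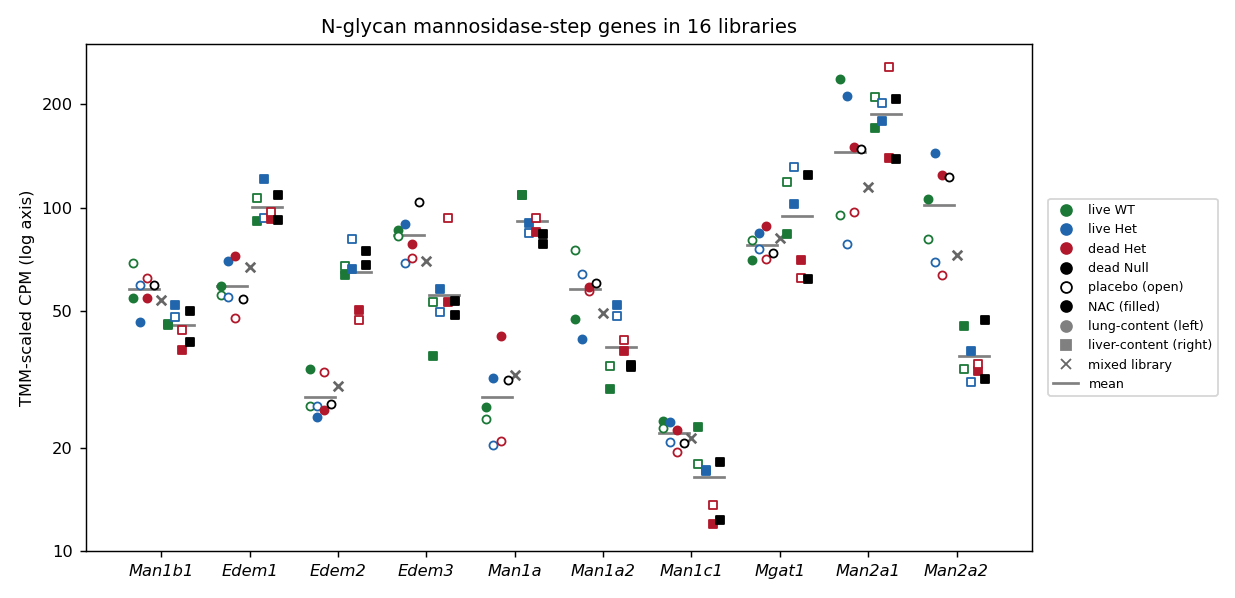
TMM-scaled CPM (log axis) of the 10 genes in the 16 libraries, coloured by pup group, with open symbols for placebo and filled ones for NAC. Circles left of each tick are the 7 lung-content libraries, squares on the right the 8 liver-content libraries, crosses the mixed library and grey lines the means. *Man1a*, *Edem1*, *Edem2* and *Man2a2* do not overlap between contents.

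*Man1a2*, the targeted gene, was read in every null library. Among lung-content libraries it stood at 60.3 CPM in the null placebo library, against 75.4 (placebo) and 47.4 (NAC) in live WT, 63.8 and 41.4 in live Het and 57.0 and 58.8 in dead Het pups. Among liver-content libraries it stood at 34.3 and 34.9 CPM in the NAC libraries of null pups labelled lung and liver, against 34.5 (placebo) and 29.7 (NAC) in live WT, 48.2 and 51.9 in live Het and 41.2 and 38.3 in dead Het pups. The null values lay inside the range of the other pups in both contents. The mixed null library had 49.4 CPM. Raw counts behind these values were 297 to 1424 per library.

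Tissue content moved the mannosidase-step genes in both directions. With edgeR's quasi-likelihood test and Benjamini-Hochberg adjustment over 14175 genes, 8 of 10 members were called at an adjusted p under 0.05, 5 higher and 3 lower in lung-content libraries, where 72.3% of all genes were called. The median log2 fold change (log2FC) of the members was 0.02 against -0.10 over all genes tested. Values of the 2 contents did not overlap for 4 of 10 members, a state that held for 49.9% of all genes. Neither count sets the members apart from other genes.

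*Man1b1*, the ER mannosidase of the first trim, ranged from 46.4 to 68.9 CPM in lung-content libraries (median 59.6) and from 38.5 to 52.2 in liver-content libraries (median 45.6). It was higher in lung-content by a log2FC of 0.31 (SE 0.12, adjusted p = 0.0421), and the ranges overlapped. This call was lost in 11 of 14 fits that each left out 1 library (adjusted p 0.0235 to 0.139), and stood only without live Het NAC labelled lung, live Het NAC labelled liver or dead null NAC labelled liver.

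The *Edem* genes split. *Edem1* ranged from 47.7 to 72.4 CPM (median 55.7) in lung-content and from 91.4 to 121 (median 94.9) in liver-content libraries, lower in lung-content by a log2FC of -0.74 (SE 0.14, adjusted p = 0.000612), a call that was lost when scaled by library size alone (-0.11, adjusted p = 0.479). *Edem2* ranged from 24.5 to 33.9 CPM (median 26.5) and from 47.2 to 80.8 (median 67.1), with a log2FC of -1.22 (SE 0.13, adjusted p = 1.0e-05). Both were lower in every lung-content library than in any liver-content library. *Edem3* went the other way, at 69.1 to 104 CPM (median 82.5) in lung-content and 36.8 to 93.3 (median 53.0) in liver-content libraries, with a log2FC of 0.61 (SE 0.16, adjusted p = 0.00532). Only the liver-labelled dead Het placebo library, at 93.3 CPM, brought the liver-content range of *Edem3* into that of lung-content. Per exon kb, *Edem3* made up 39.7% to 50.3% of the summed *Edem* level in lung-content libraries (42.8% ± 3.82, SD, n = 7) and 15% to 33.8% in liver-content libraries (20.3% ± 5.83, SD, n = 8). *Edem2* made up 27.0% ± 4.18 and 43.5% ± 6.43 in the same order.

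Of the Golgi class I enzymes, *Man1a* showed the widest gap between contents. *Man1a* ranged from 20.3 to 42.2 CPM (median 26.2) in lung-content and from 78.2 to 109 (median 87.5) in liver-content libraries, with a log2FC of -1.63 (SE 0.17, adjusted p = 6.3e-06). *Man1a2* ranged from 41.4 to 75.4 CPM (median 58.8) and from 29.7 to 51.9 (median 36.6), higher in lung-content by 0.52 (SE 0.14, adjusted p = 0.00618). The paralogs thus differed in opposite directions between contents, without overlap for *Man1a* and with overlap for *Man1a2*. *Man1c1* ranged from 19.4 to 23.9 CPM (median 22.6) and from 12 to 22.9 (median 17.1), higher in lung-content by 0.45 (SE 0.14, adjusted p = 0.0145), and was not called without live WT placebo labelled lung (adjusted p = 0.0521). Within lung-content, *Man1a* and the hepatocyte marker sum were highest in the same library, dead Het NAC, at 42.2 and 1144 CPM, where the lowest liver-content library had 169012 CPM of these markers.

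*Mgat1*, which hands the trimmed glycan to the later steps, was not called between contents (log2FC -0.27, SE 0.18, adjusted p = 0.194), except without dead null NAC labelled lung (-0.38, adjusted p = 0.0336). It was even among lung-content libraries, at 70.3 to 88.4 CPM (coefficient of variation 8.80%), and ranged from 62.0 to 131 CPM (30.2%) among liver-content libraries. The liver-content libraries with the highest *Mgat1*, live Het placebo (131 CPM), dead null NAC labelled liver (124) and live WT placebo (119), were also those with the lowest erythroid marker sums, 8456, 8635 and 19748 CPM, against 36074 to 47000 in the other 5, whose *Mgat1* ranged from 62.0 to 102 CPM. The part of erythroid cells in this spread was not tested.

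The class II enzymes differed from each other. *Man2a2* ranged from 63.8 to 144 CPM (median 106) in lung-content and from 31 to 46.9 (median 34.5) in liver-content libraries, with a log2FC of 1.58 (SE 0.17, adjusted p = 8.6e-06), the largest rise among the members. *Man2a1* ranged from 78.4 to 237 CPM (median 148) and from 139 to 257 (median 190.2) and was not called (log2FC -0.35, SE 0.27, adjusted p = 0.265). *Man2a2* made up 33.8% ± 5.12 (SD, n = 7) of the summed class II level per exon kb in lung-content and 12.6% ± 3.65 (SD, n = 8) in liver-content libraries.

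Scaling moved all 10 members by about the same amount. By library size alone the median log2FC of all genes was 0.53, higher by 0.62 than under TMM, *Mgat1* and *Man2a1* stood at log2FC 0.34 and 0.26 in place of -0.27 and -0.35, *Man1a2*, *Man1b1*, *Man1c1* and *Edem3* at 1.15, 0.93, 1.07 and 1.24, and all-gene calls were 7104 higher and 3217 lower in place of 4816 and 5428. Relative to the median of all genes, *Mgat1* and *Man2a1* stood at -0.19 and -0.27 under that scaling and at -0.18 and -0.26 under TMM, and *Man1a2* and *Edem1* at 0.62 and -0.64 and at 0.61 and -0.65.

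Per kb of annotated exon, the order of mean levels in lung-content libraries was *Man2a1* (20.1 ± 8.40 CPM per kb, SD, n = 7), *Mgat1* (16.4 ± 1.44), *Edem3* (13 ± 1.86), *Man1b1* (10.7 ± 1.32), *Man2a2* (9.86 ± 3.00), *Edem1* (9.15 ± 1.38), *Edem2* (8.13 ± 1.10), *Man1a2* (7.25 ± 1.39), *Man1c1* (3.84 ± 0.301) and *Man1a* (2.92 ± 0.799). Neighbours whose means differed by more than the larger SD were *Mgat1* over *Edem3*, *Edem3* over *Man1b1*, *Man1a2* over *Man1c1* and *Man1c1* over *Man1a*, and the other 5 neighbouring pairs did not. In liver-content libraries the order was *Man2a1* (26.0 ± 5.49 CPM per kb, SD, n = 8), *Mgat1* (19.9 ± 6.02), *Edem2* (18.7 ± 3.26), *Edem1* (15.5 ± 1.70), *Man1a* (9.48 ± 1.19), *Edem3* (8.73 ± 2.57), *Man1b1* (8.45 ± 0.849), *Man1a2* (4.91 ± 0.953), *Man2a2* (3.58 ± 0.585) and *Man1c1* (2.87 ± 0.64). There *Man2a1* over *Mgat1*, *Edem1* over *Man1a*, *Man1b1* over *Man1a2*, *Man1a2* over *Man2a2* and *Man2a2* over *Man1c1* differed by more than the larger SD, and the other 4 pairs did not. *Man1a* thus went from the lowest place in lung-content to the fifth in liver-content libraries. Divided by the length of the longest coding transcript, *Man1a2* kept the eighth place in lung-content and took the ninth in liver-content, and *Edem3* led in lung-content and *Mgat1* in liver-content libraries.

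**Figure D2:**
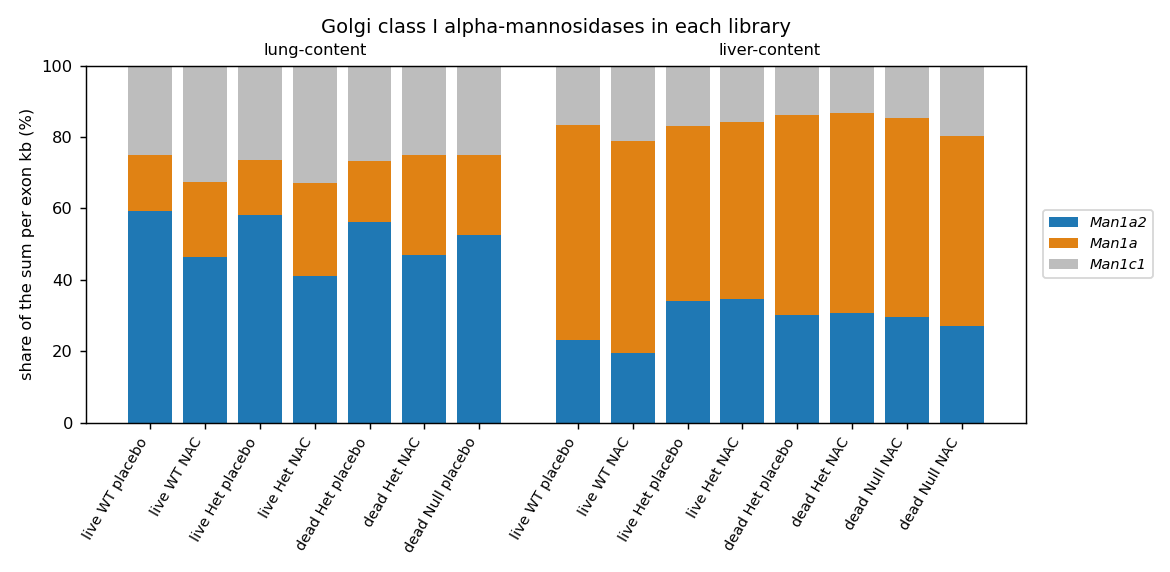
Share (%) of *Man1a2*, *Man1a* and *Man1c1* in their summed counts per exon kb, 1 bar per library, with the 7 lung-content libraries on the left and the 8 liver-content libraries on the right, each labelled by pup group and treatment. *Man1a2* took 41.0% to 59.4% of the sum in lung-content and 19.6% to 34.5% in liver-content libraries, and the null bars lie within these ranges.

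The makeup of the Golgi class I step is free of scaling between libraries, because each share is taken within a library. *Man1a2* made up 51.5% ± 6.94 (SD, n = 7) of the summed *Man1a*, *Man1a2* and *Man1c1* level per exon kb in lung-content and 28.6% ± 5.14 (SD, n = 8) in liver-content libraries, and *Man1a* 20.8% ± 5.03 and 54.9% ± 4.0. *Man1a2* stood 1.57 to 3.81 times as high as *Man1a* in lung-content libraries and 0.330 to 0.695 times as high in liver-content libraries. With the longest coding transcript as the length, the *Man1a2* share was 41.7% (31.6% to 49.8%) and 18.9% (12.5% to 23.5%), and *Man1a* took 31.3% and 67.9%.

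If *Man1a2* RNA were unchanged and paralogs stood higher where it carried the deletion, the *Man1a2* share would be lower in null libraries. The other pups are WT and Het, and Het pups also carry the deletion, so this comparison is not against WT alone. The share was 52.5% in the lung-content null library against 51.4% ± 7.59 (SD, n = 6) in the libraries of the other pups. It was 27.0% and 29.5% in the liver-content null libraries, labelled liver and lung, against 28.7% ± 6.02 (SD, n = 6) in the other libraries. The difference, null minus others averaged over contents, was 0.348 percentage points (exact permutation test within content, two-sided p = 0.959 over 196 arrangements, whose smallest one-sided share is 0.0051). This test pools treatments, although the lung-content null library was placebo and both liver-content null libraries were NAC. At the same treatment, the null share of 52.5% in lung-content was below the 56.3% to 59.4% of the 3 other placebo libraries (58% ± 1.54, SD, n = 3). These are pools of 3 different pup groups. At the same treatment in liver-content, the null mean of 28.2% stood beside 28.3% ± 7.75 (SD, n = 3 libraries). The difference was then -2.75 percentage points (exact permutation test added after seeing the data, two-sided p = 0.45 over 40 arrangements). Among the other pups in liver-content, the share was 19.6% and 23.2% in live WT, 30.1% and 30.7% in dead Het and 34.0% and 34.5% in live Het libraries. Live WT libraries thus had the lowest *Man1a2* shares in liver-content, while in lung-content they were at 46.3% and 59.4%, against 41.0% to 58.2% in the heterozygotes. Within lung-content the share was lower in the NAC than in the placebo library of each pair, at 46.3% and 59.4% in live WT, 41.0% and 58.2% in live Het and 47% and 56.3% in dead Het pups, a difference that was not tested as a share. Since counts per gene include transcripts without exon 2, a share says nothing of how much intact *Man1a2* was made.

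**Figure D3:**
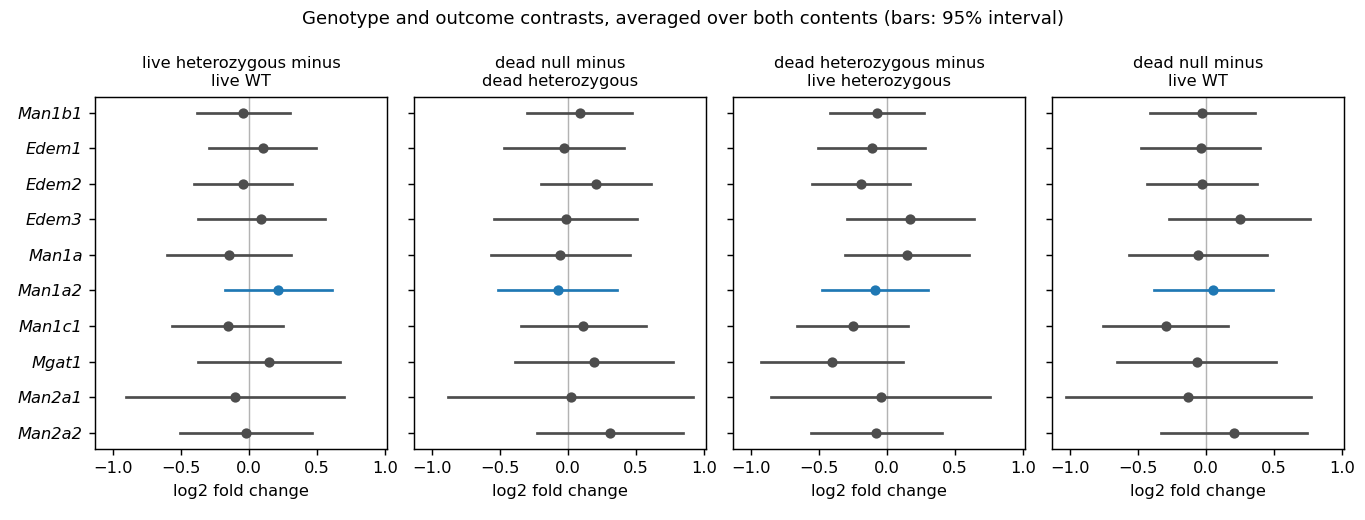
Log2 fold change of the 10 genes with its 95% interval in 4 contrasts of pup groups, each averaged over lung-content and liver-content, from edgeR's quasi-likelihood fit over 15 libraries. *Man1a2* is in blue, and every interval spans 0.

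Between genotypes, none of the 10 members was called. In live Het against live WT pups, 0% of the 14175 genes passed, and 248 genes and 0 members had an unadjusted p under 0.05, with 0 calls by DESeq2 also. *Man1a2* had a log2FC of 0.22 (95% interval -0.18 to 0.61). The paralogs *Man1a* and *Man1c1* were at -0.15 (-0.60 to 0.31) and -0.16 (-0.57 to 0.25), and *Man1b1* at -0.04 (-0.39 to 0.31). Changes of any size inside these intervals remain possible, and the failed test does not show equal levels.

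By content, *Man1a2* of live Het pups was higher than in live WT at the same treatment in liver-content, 48.2 against 34.5 CPM in placebo and 51.9 against 29.7 in NAC libraries, and lower in lung-content, 63.8 against 75.4 and 41.4 against 47.4. The liver-content log2FC was 0.65 (0.10 to 1.21, unadjusted p = 0.0256, adjusted p = 1 in edgeR's test) and the lung-content one -0.22 (-0.77 to 0.33). The difference between contents was -0.87 (-1.66 to -0.09, unadjusted p = 0.0322, adjusted p = 1), a test added after seeing the data in which 0% of genes were called and 189 had an unadjusted p under 0.05. Erythroid marker sums were 8456 and 36665 CPM in the live Het and 19748 and 47000 in the live WT liver-content libraries. In liver-content, live Het and live WT values did not overlap for 4 members, *Man1a2* and *Man1b1* higher and *Man1a* and *Man1c1* lower in Het, against 28.2% of all genes with 2 libraries on each side. *Man1a* stood there at 84.5 and 90.4 CPM in Het and at 108 and 109 in WT, and *Man1c1* at 17.2 and 17.1 against 17.9 and 22.9. In lung-content only *Edem2* did not overlap, against 16% of all genes. It stood at 26.46 (placebo) and 24.5 CPM (NAC) in Het and at 26.49 and 33.9 in WT. The placebo libraries were thus nearly equal.

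In dead null against dead Het pups, 0% of genes were called, 340 genes and 0 members had an unadjusted p under 0.05, and DESeq2 called 1 gene and no member. *Man1a2* had a log2FC of -0.07 (-0.51 to 0.36). *Man1a* was at -0.06 (-0.57 to 0.45), *Man1c1* at 0.11 (-0.35 to 0.57) and *Man1b1* at 0.09 (-0.30 to 0.47). The highest value was that of *Man2a2*, 0.31 (-0.23 to 0.85). In liver-content alone *Edem2* was at 0.58 (0.05 to 1.11, unadjusted p = 0.0351, adjusted p = 0.494), with 67.9 and 74.6 CPM in null and 47.2 and 50.4 in dead Het libraries. DESeq2 called 156 genes and no member in this contrast of liver-content alone. The single lung-content null library is assumed in this fit to vary like the others. Age at death may also have differed between null and dead Het pups.

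Against live WT, where genotype and outcome both differ, null pups again gave 0% of genes and 0 of 10 members, with 193 genes and 0 members at an unadjusted p under 0.05 and 0 calls by DESeq2. *Man1a2* was at 0.05 (-0.38 to 0.49), *Man1c1* at -0.30 (-0.76 to 0.17), *Edem3* at 0.25 (-0.27 to 0.77) and *Man2a2* at 0.21 (-0.33 to 0.75). The difference of the null minus WT effect between contents was called for 0% of genes and 0 members, with 676 genes and 0 members at an unadjusted p under 0.05, and stood at -0.36 (-1.29 to 0.57) for *Man1a2*. In liver-content, the values of the 2 null libraries lay apart from those of the 6 other libraries for 1 member, against 5.62% of all genes. This member was the Golgi paralog *Man1a*, at 78.2 and 83.8 CPM in null libraries and 84.5 to 109 in the others, and so below them. In lung-content, *Man1a* in the null library (31.4 CPM, placebo) lay above the 20.3 to 24.2 of the 3 other placebo libraries, and the NAC libraries ranged from 26.2 to 42.2. The hepatocyte marker sum of that null library was likewise above those of the other placebo libraries, 777 against 184 to 412 CPM, and its part was not tested. With 1 null library, *Man1a* at the same treatment could not be set against a spread of nulls. The null minus WT log2FC of *Man1a* was -0.57 (-1.24 to 0.10) in liver-content and 0.46 (-0.34 to 1.26) in lung-content, and the difference between them 1.03 (-0.05 to 2.11, unadjusted p = 0.0592, adjusted p = 1). DESeq2 called 43 genes and no member for null minus WT in liver-content alone. *Man1a* was not called in null pups in either content.

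Outcome was compared within heterozygotes. In dead Het against live Het pups, 0% of genes and 0 members were called by edgeR, with 625 genes and 0 members at an unadjusted p under 0.05, and DESeq2 called 18 genes and no member. *Man1a2* was at -0.09 (-0.48 to 0.30). The lowest value was that of *Mgat1*, -0.41 (-0.93 to 0.12), and the highest that of *Edem3*, 0.17 (-0.30 to 0.64). In liver-content alone *Mgat1* was at -0.81 (-1.55 to -0.07, unadjusted p = 0.0347, adjusted p = 0.454), with 62.2 (placebo) and 70.1 CPM (NAC) in dead Het and 131 and 102 in live Het libraries, and *Edem2* at -0.59 (-1.10 to -0.08, unadjusted p = 0.028, adjusted p = 0.447), with 47.2 and 50.4 CPM against 80.8 and 66.4. There DESeq2 called 33 genes and no member. These dead Het libraries had erythroid sums of 42107 and 42828 CPM and the live Het ones 8456 and 36665, whose part was not tested. The difference of this effect between contents was called for 0% of genes and 0 members, with 784 genes and 1 member, *Edem2* (0.79, 0.07 to 1.52), at an unadjusted p under 0.05.

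**Figure D4:**
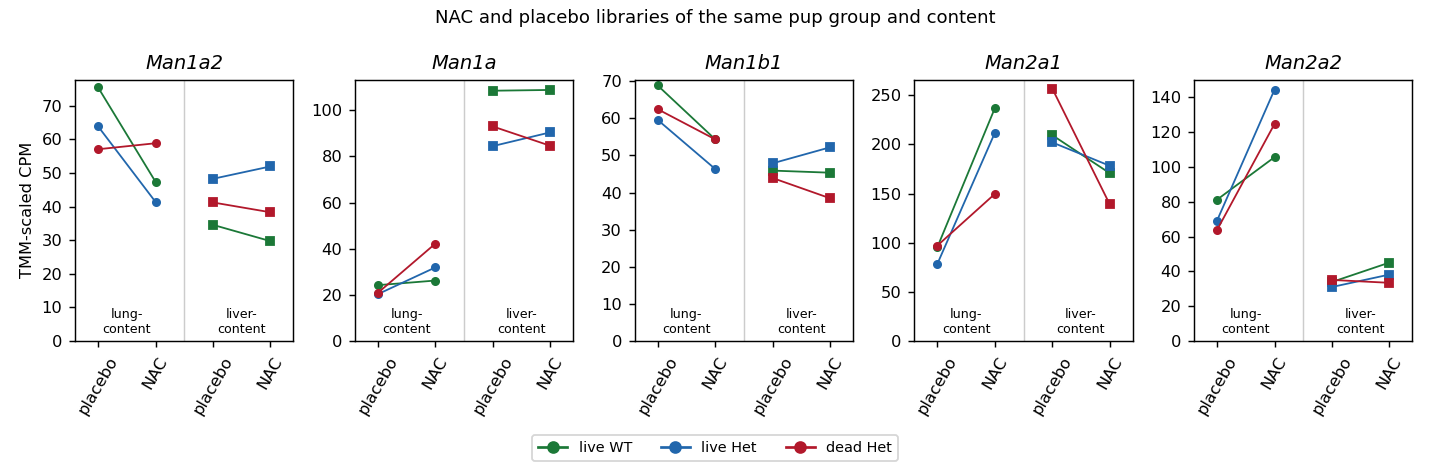
TMM-scaled CPM of *Man1a2*, *Man1a*, *Man1b1*, *Man2a1* and *Man2a2* in placebo and NAC libraries, each line joining the 2 libraries of 1 pup group and 1 content, with lung-content on the left and liver-content on the right of each panel. In lung-content each *Man2a1* line goes up, from 78.4 CPM or more to 149.6 or more, and in liver-content each goes down.

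NAC was compared with placebo within pup group and content, with 3 pairs in each content. With 1 treatment term for both contents, 0% of genes and 0 of 10 members were called, with 1790 genes and 1 member, *Man2a2*, at an unadjusted p under 0.05, and DESeq2 called 275 genes and no member. *Man2a2* was at a log2FC of 0.51 (0.11 to 0.91, adjusted p = 0.357) and *Man1a2* at -0.24 (-0.57 to 0.08).

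With a term in each content, a fit added after seeing the data, 2.61% of genes were called in lung-content. Of the 10 members 1 was called, *Man2a1*, and 3743 genes and 4 members had an unadjusted p under 0.05. In lung-content libraries *Man2a1* stood at 237 CPM (NAC) and 95.4 (placebo) in live WT, 212 and 78.4 in live Het and 149.6 and 97 in dead Het pups, and at 148 in the null placebo library. Each NAC library was above each placebo library, with the null placebo library just under the lowest of them. The log2FC was 1.12 (SE 0.24, 0.57 to 1.68, adjusted p = 0.0497). The call stood only without 1 of the liver-content null libraries and was lost in the other 13 of 15 fits that left out 1 library (adjusted p 0.0112 to 0.358) and by library size alone (log2FC 0.85, adjusted p = 0.0822). In liver-content, *Man2a1* stood at 171 CPM (NAC) and 209 (placebo) in live WT, 178 and 202 in live Het and 139 and 257 in dead Het pups, a log2FC of -0.45 (-1.0 to 0.09), where 0% of genes and 0 members were called and 1049 genes and 0 members had an unadjusted p under 0.05. The difference between contents was 1.58 (0.80 to 2.35, unadjusted p = 0.0013, adjusted p = 0.0957). That test called 0.0847% of genes and 0 members, with 2511 genes and 1 member at an unadjusted p under 0.05.

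The partner enzyme *Man2a2* was higher with NAC in 3 of 3 lung-content pairs, at 106 against 81.2 CPM in live WT, 144 against 69.2 in live Het and 125 against 63.8 in dead Het pups, with a log2FC of 0.80 (0.32 to 1.29, adjusted p = 0.0754). The null placebo library, at 123 CPM, lay among the NAC values. *Man1a* was at 0.59 (0.16 to 1.03, adjusted p = 0.109), higher with NAC in 3 of 3 pairs, at 26.2 against 24.2, 31.9 against 20.3 and 42.2 against 20.9 CPM. *Man1a2* was at -0.42 (-0.83 to -0.01, adjusted p = 0.186), lower in live WT and live Het and at 58.8 against 57.0 CPM in dead Het pups. Values of NAC and placebo libraries did not overlap in lung-content for 3 members, *Man2a1* and *Edem1* higher and *Man1b1* lower with NAC, against 28.9% of all genes, and in liver-content for 0 members, against 1.69% of genes. *Edem1* ranged from 58.9 to 72.4 CPM with NAC and from 47.7 to 55.7 with placebo. *Man1b1* ranged from 46.4 to 54.4 CPM with NAC and from 59.6 to 68.9 with placebo. In lung-content, *Man1c1*, *Edem1* and *Edem3* were also higher with NAC in 3 of 3 pairs, and *Man1b1* was lower in 3 of 3.

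Treatment moved together with other features of the lung-content libraries. In each lung-content pair the NAC and the placebo library carried different tissue labels, so treatment and label cannot be told apart within a pair. Lung epithelium marker sums were 10859, 10833 and 17747 CPM in the NAC and 13804 to 15336 in the placebo libraries, and *Rn45s* took 8.16% to 26.2% and 4.05% to 19.7% of counts. Hepatocyte sums were higher with NAC in each pair, 745 against 280 CPM in live WT, 794 against 412 in live Het and 1144 against 184 in dead Het pups, and 777 in the null placebo library. Erythroid sums were also higher with NAC in each pair, 7320 against 4753, 8790 against 6166 and 12249 against 11945 CPM. In liver-content pairs the NAC and the placebo library likewise carried different tissue labels. Erythroid sums there were also higher with NAC, 47000 against 19748 CPM in live WT, 36665 against 8456 in live Het and 42828 against 42107 in dead Het pups. The part of these features in the results of either content was not tested.

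The study's own comparison sets NAC against placebo within a labelled tissue, with 1 library on each side and a coefficient of variation of 0.2 assumed in place of a measured one, so it compares libraries that also differ in content and no p is given here. By edgeR's exact test, with the same limit on the adjusted p and a change of 1 log2 unit or more, members were called 22 times over the 8 pairs. In lung-labelled pairs, 2 members were called in live WT (53.6% of genes), 3 in live Het (57.2%), 1 in dead Het (48.5%) and 2 in null pups (43%). In liver-labelled pairs, 4 members were called in live WT (47.4%), 4 in live Het (47.7%), 2 in dead Het (49%) and 4 in null pups (53.1%). *Man1a* was called in all 8 pairs and lower in each of the 3 whose NAC library was lung-content, at log2FC -2.05, -1.40 and -1.14, and higher in each of the 5 whose NAC library was liver-content, at 1.27 to 2.17. *Man1a2* was called in 1 pair, live WT labelled liver, at -1.34, from 75.4 CPM in a lung-content to 29.7 in a liver-content library.

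**Figure D5:**
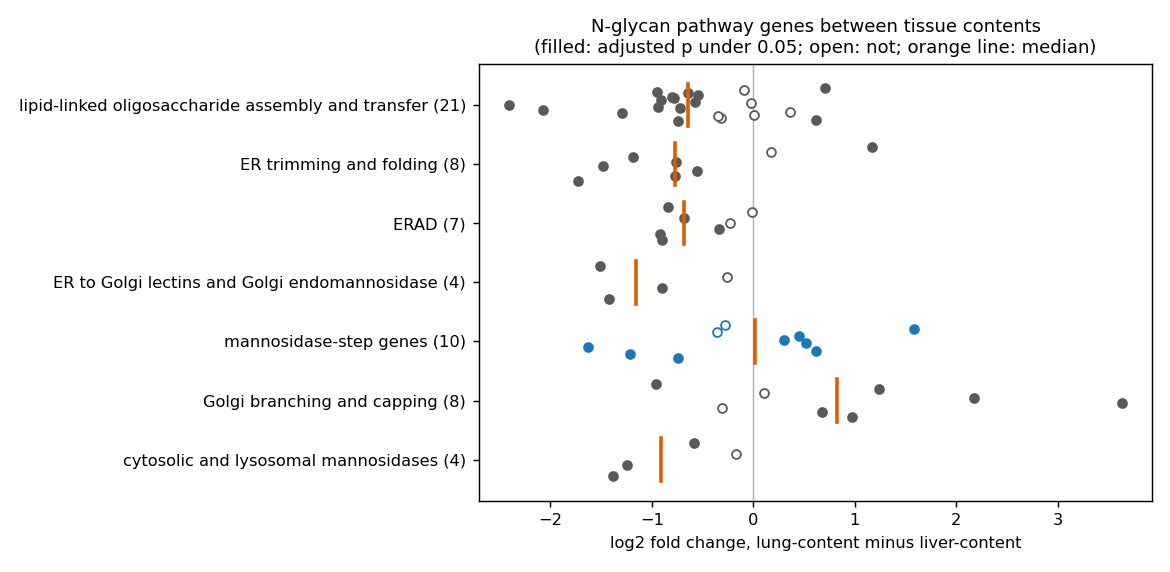
Log2 fold change between lung-content and liver-content libraries for the 10 mannosidase-step genes (blue) and 52 other N-glycan genes by list (grey), 1 point per gene, filled where the adjusted p was under 0.05, with the median as an orange line. Golgi branching and capping genes have a median of 0.83, and the other grey lists have medians from -0.64 to -1.16.

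Other steps of the pathway were read from a fixed list of 53 genes, of which 52 were tested. Between contents 8 were higher and 31 lower in lung-content libraries, with a median log2FC of -0.61 against -0.10 over all genes. Over all genes tested, 72.3% were called, 4816 higher and 5428 lower. These values are under TMM scaling, and library size alone put the median of all genes higher by 0.62. Lipid-linked oligosaccharide assembly and transfer had 2 of 21 genes higher, the transferase subunit *Tusc3* (0.71) and the glucosyltransferase *Alg10b* (0.62), and 13 lower, with the lowest values for the assembly enzymes *Alg8*, a glucosyltransferase (-2.40), and *Alg3*, a mannosyltransferase (-2.08). Trimming and folding in the ER had 1 of 8 higher, *Uggt2*, a folding sensor that adds glucose back (1.18), and 6 lower, among them the lectin chaperone *Calr* (-1.73) and the glucosidase *Mogs* (-1.48). ERAD genes were lower in 5 of 7 and higher in 0, led by the derlins *Derl2* (-0.92) and *Derl1* (-0.90), which help to move proteins out of the ER. ER to Golgi lectins and the Golgi endomannosidase were lower in 3 of 4, led by the cargo receptor pair *Mcfd2* (-1.51) and *Lman1* (-1.42). Cytosolic and lysosomal mannosidases were lower in 3 of 4, led by the lysosomal *Man2b1* (-1.39) and *Man2b2* (-1.25). Golgi branching and capping had 5 of 8 genes higher and 1 lower. The transferases *Mgat3* (3.63) and *Mgat4a* (2.18) had the largest rises, and the sialyltransferase *St6gal1* (-0.96) was the one that was lower. In the genotype, outcome and NAC contrasts with 1 treatment term, 0 of the 52 genes were called.

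The genes whose pattern was most like that of *Man1a2* were ranked by Pearson's r of log2(CPM + 1) over 15 libraries after each content's mean was subtracted, among 9799 genes with a mean of 10 CPM or more. They were *Heatr6* (r = 0.83), *Cd79a*, a part of the B cell receptor (0.81), *Slc34a2*, a phosphate transporter of alveolar type 2 cells (0.80), *Gtf2a1*, a general transcription factor (0.79), and *Bri3bp* (0.78). Among the other members, *Man1b1* came closest (r = 0.67, place 66), and *Man1a* (-0.29), *Man2a1* (-0.42) and *Man2a2* (-0.49) were on the negative side. The points share library and depth, and these values are a description.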

How the data were processed

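Polyadenylated RNA of 16 pooled libraries was sequenced. The deposited table holds an estimated count for each symbol and library, without normalization, which the authors made by trimming adapters, aligning reads to the Ensembl mouse build GRCm38 (mm10 in the processing notes) with the Omicsoft Sequence Aligner and keeping unique mappings. The annotation release, strand use and division of shared reads are not given in the sources used here. Per the submitters' processing notes, R 4.0.3 and edgeR 3.30.3 were used. Between 6.28% and 7.98% of a library's values were not whole, and all were rounded. Of 25054 entries, 329 symbols occupied 962, which were kept apart.

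TMM factors were computed over all 16 libraries, and CPM are scaled by them. One quasi-likelihood fit in edgeR 4.0.16 (R 4.3.3) held a mean for each pup group and content plus a treatment term, over 15 libraries with a mean CPM of 1 or more, leaving 6 residual degrees of freedom and a common coefficient of variation of 0.301. Adjusted p-values are Benjamini-Hochberg over all genes tested, and log2 fold change intervals are 95% intervals from that fit. Each library is a pool, and cells of the design hold 1 or 2 libraries. The 2 libraries of a cell differ in treatment and tissue label, except in liver-content nulls. Those 2 are both NAC and differ in label only, and whether they came from the same pups is not stated. They were treated as separate libraries, and p-values measure the spread between such pools. The *Man1a2* share was tested by permuting null labels within content. Levels per kb used union exon lengths of GENCODE on GRCm38, from which positions and sequences were also taken. DESeq2 1.42.0, other scalings and filters, the labelled tissue, other lengths and each library left out were alternatives. Terms by content, a block of pup group and treatment, shares at the same treatment and fits on libraries that match or go against their label were added after seeing the data. Where a value was not called, higher or lower describes the libraries measured and is not a result about the groups. Steps were tested on simulated data. Named genes are all members, the 2 called genes of the pathway list with the largest change each way over the list and in each of its groups, and the 5 genes most like *Man1a2*. Members and lists were chosen with earlier results of these data known. Other software was Python 3.11.15, pandas 2.3.3, numpy 2.4.6, scipy 1.17.1 and Biopython 1.88.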

Additional observations from a re-analysis of the deposited data

Results flagged for a closer look

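Over 22 sets of values, the 10 genes and the *Man1a2* share in each content, 1 library stood apart from the rest of its set. *Edem3*, a mannosidase-like protein of ER-associated degradation, had 93.3 CPM in the liver-labelled placebo library of dead Het pups, against 36.8 to 57.8 in the other 7 liver-content libraries. About 1 set in 20 would be marked by chance alone. The same library had the highest *Man2a1* of the liver-content libraries, 257 CPM.

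*Man2a1*, the Golgi alpha-mannosidase II, was higher with NAC in 3 of 3 lung-content pairs and lower in 3 of 3 liver-content pairs. Within each of these pairs treatment and tissue label cannot be told apart. *Man1a*, *Man1c1*, *Edem1*, *Edem3* and *Man2a2* were also higher with NAC in 3 of 3 lung-content pairs. The share of all genes with the pattern of *Man2a1* is not given here. For *Man2a1*, the difference of the log2 fold change between contents was 1.58 (SE 0.34, 95% interval 0.80 to 2.35), with an adjusted p of 0.0957 in edgeR's quasi-likelihood test. Leaving out either liver-content null library, which enter no pair, brought it to 0.0286 and 0.029, and over all libraries left out in turn it ranged from 0.0286 to 0.402.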

How the results depend on the processing

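Of the 8 members called between contents, *Man1a*, *Edem2* and *Man2a2* were called under every alternative but the labelled tissue. With the labelled tissue in place of content, 0 members and 0 genes were called, and values were 0.029 for *Man1a*, -0.23 for *Man1a2*, -0.15 for *Man1b1*, -0.11 for *Man1c1*, 0.040 for *Edem1*, 0.18 for *Edem2*, -0.067 for *Edem3* and -0.0614 for *Man2a2*, all opposite in sign to those by content, since that grouping mixes both contents. In libraries whose content matches their label, 4 members (*Man1a*, *Edem1*, *Edem2* and *Man2a2*) were called, from fewer libraries, and in those that go against it 8. Leaving out 1 library gave 6 to 8. *Edem1* was not called by library size alone (-0.11), nor *Man1b1* without a filter on low counts.

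Genotype and outcome contrasts, and NAC with 1 treatment term, gave 0 members under every alternative. With a term in each content, *Man2a1* was called in lung-content, and without 1 of the liver-content null libraries *Man1a* and *Man2a2* there and the difference of *Man2a1* between contents also were. All-gene counts for NAC were 9 with no filter, 275 by DESeq2 and up to 19 with 1 library left out, and DESeq2 called 30 for the difference of the null effect between contents and up to 156 in contrasts of liver-content alone. The cause was not tested. The difference in *Man1a2* share ranged from -0.689 to 1.15 percentage points with 1 library left out. Member calls over the labelled pairs were 39 by library size alone and 1 with a coefficient of variation of 0.4. Without the lung-content null library, contrasts that need it could not be fitted. With pup group and treatment as a block, in the 6 sets that had both contents, 7 members were called between contents, all but *Man1b1*. No block by replicate number was fitted, since each group had 1 library. The main fit had 6 residual degrees of freedom, and that with a treatment term in each content had 5. A value that was not called does not show equal levels, and changes of any size inside its interval remain possible.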
